A study of Mus musculus with 3 samples.

Results

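The osteoblast lineage transcription factors described here are 8 genes taken by name from the count tables: the RUNX factors Runx2, Runx1 and Runx3, their partner Cbfb, the zinc finger factor Sp7, and the homeobox factors Dlx3, Dlx5 and Dlx6. They were 8 of 43280 genes in each table and 8 of the 12127 measured genes. Measured genes are those with an average of at least 5 CPM. CPM are counts per 1000000 library counts after TMM, a scaling that sets the bulk of genes level between libraries. Mouse embryos at E15.5 gave RNA of skeletal mesenchyme, calvarial by the series' description, from which the flat bones of the skull form. There was 1 library for each of 3 genotypes of beta-catenin, the protein encoded by Ctnnb1 that anchors cadherins and relays Wnt signals to TCF/LEF factors. The control was beta-catenin fx/fx without Cre. The library called cKO was beta-catenin fx/fx; Dermo1-Cre, and the one called dTF-cKO was beta-catenin fx/dm; Dermo1-Cre. All 3 thus carried a floxed allele, on both chromosomes in the control and cKO and on one in the dTF-cKO. Dermo1-Cre is expressed from the Twist2 locus in mesenchymal progenitors, so epithelial and blood cells of the tissue are not its main targets. The labels do not define the dm allele or say how many embryos went into a library, and no fx/dm library without Cre was analysed here. A mouse Ctnnb1 allele known as dm keeps adhesion and lacks transcriptional output. Since each genotype had 1 library, no difference has a replicate check and no test of genotype was possible. Every interval below is a 95% interval for counting error only.

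Osteoblasts of the skull form directly from mesenchyme. Runx2 is the factor without which no osteoblast forms, and it binds DNA together with CBF-beta, the Cbfb product, which all RUNX proteins share. Sp7, also called osterix, acts downstream of Runx2 and is needed for progenitors to become bone-forming cells. Dlx5 and Dlx6 are neighbouring genes that respond to BMP signals and act on Runx2 and Sp7, and Dlx3 works both in bone and in the upper layers of the epidermis. Runx1 and Runx3 are best known from blood cells, hair follicles and sensory neurons, and are also expressed in skeletal progenitors. Beta-catenin is required in this lineage for progenitors to become osteoblasts and not chondrocytes.

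The libraries held 2678457 to 3634819 counts, and they differed in more than the bone programme. Ctnnb1, the targeted gene, had 3669 counts in control, 2106 in cKO and 1236 in dTF-cKO (1026, 745 and 442 CPM); counts cover the whole gene, so recombined transcripts were not separated. Mesenchymal genes were present in each library: Prrx1 had 1146, 598 and 114 counts and Twist1 590, 301 and 349 in the control, cKO and dTF-cKO. The 20 epidermis markers summed to 167, 24420 and 14848 CPM in the same order. The 12 muscle markers summed to 1971, 328 and 14.3 CPM, the 15 neuron markers to 182, 117 and 62.2 CPM, and the 16 cartilage markers to 2537, 3875 and 684 CPM. By the 2-fold mark the cKO had 10 cartilage markers above control and 0 below, beside 10.2% and 7.17% of all measured genes. The dTF-cKO had 1 above and 9 below, beside 19.9% and 21.7%. Of those 9, 7 had an interval that excludes 1. Under the stroma scaling, described after the members, the dTF-cKO had 3 above and 5 below, beside 60.1% and 8.77%. In the control 3 epidermis markers had 0 counts (Dsg3, Ivl and Grhl3), and in the dTF-cKO 3 muscle markers did (Myod1, Myog and Ckm). In bulk RNA, fewer cells of a type and less RNA per cell cannot be told apart, and this holds for every difference below.

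Under TMM scaling none of the 8 factors was at least 2-fold higher in either Cre-carrying library; Runx1 passed that mark in the dTF-cKO under 1 of 4 other scalings, given after the members. In the cKO 3 of 8 were lower than in control by that rule, Runx2, Sp7 and Dlx6, beside 7.17% of all measured genes lower and 10.2% higher. In the dTF-cKO 7 of 8 were lower, all but Runx1, beside 21.7% of measured genes lower and 19.9% higher. Set against the cKO, the dTF-cKO had 4 of 8 lower, Runx3, Sp7, Dlx5 and Dlx6, beside 21.5% of measured genes lower and 15.0% higher. The 8 factors had a median log2 difference from control of -0.84 (cKO) and -2.10 (dTF-cKO), and all measured genes one of 0.06 in both. Both comparisons use the same control library and are not independent of each other. The plot of levels by library shows how unequal the members were.

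**Figure D1:**
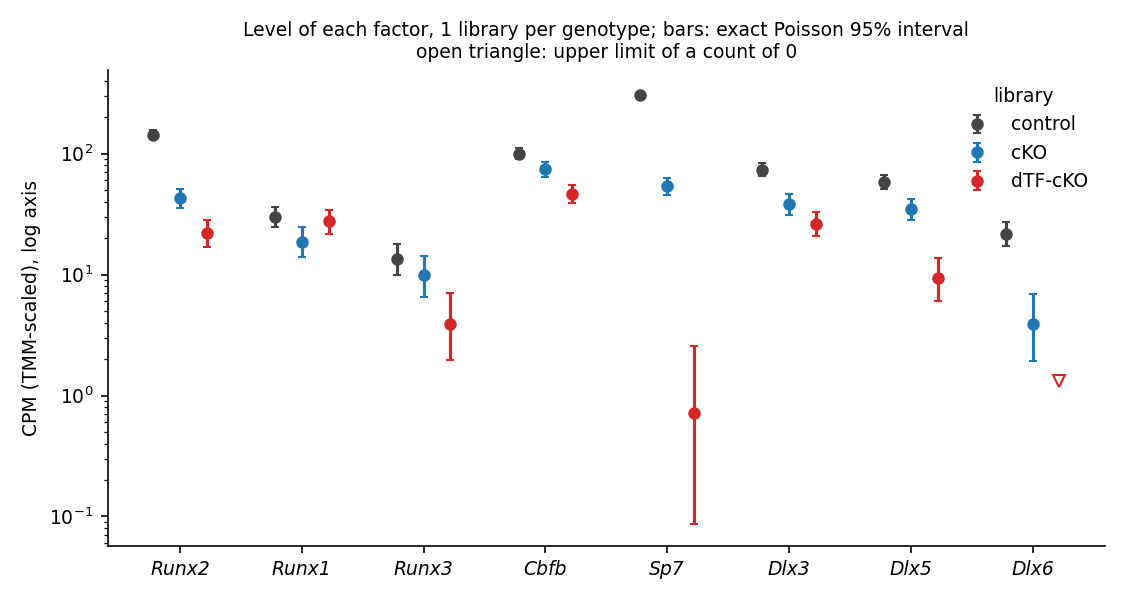
Level of each factor in CPM (TMM-scaled, log axis) in the 1 control, 1 cKO and 1 dTF-cKO library. Points are libraries, bars exact Poisson 95% intervals, and the open triangle is the upper limit of a count of 0. Sp7 spans 305 to 0.715 CPM, whereas Runx1 stays between 18.7 and 29.9 CPM.

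Runx2 lies on chromosome 17 from 44495987 to 44814797 on the minus strand of mm10. The control library held 512 Runx2 counts, the cKO 121 and the dTF-cKO 62, or 143, 42.8 and 22.2 CPM. On this scale the control was the highest library and the dTF-cKO the lowest, and the 3 Poisson intervals (131 to 156, 35.5 to 51.1 and 17.0 to 28.4 CPM) did not overlap. Against control, Runx2 was 3.35-fold lower in the cKO (2.74 to 4.11) and 6.47-fold lower in the dTF-cKO (4.96 to 8.56). The dTF-cKO was 1.93-fold below the cKO (1.41 to 2.67), just under the 2-fold rule. It passed that rule under library totals (2.12-fold) and without the 20 most abundant genes (2.37-fold). But this last direction depends on the scaling: the ratio was 0.518 under TMM and 1.36 under the stroma scaling described after the members. Of all measured genes, 2.51% (cKO) and 5.34% (dTF-cKO) had a lower log2 difference from control than Runx2. The antisense gene Runx2os1 shares 519 bases with Runx2 exons, and it had 3, 0 and 1 counts; whether the authors' counting used strand is not given in the sources used here.

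A short stretch near a Runx2 start site is shown because it holds binding letters of the RUNX family itself and of the TCF/LEF factors through which beta-catenin acts. RefSeq windows of GRCm38.p6, from 250 bases before to 50 after a start site, were found for 4 of the 8 members. The RUNX motif searched was ACCACA, the TCF/LEF motif CTTTGA and a homeodomain motif TAATTG, each on both strands. The 250 bases before the start site of the Runx2 window held 1 RUNX match and 1 TCF/LEF match. They are printed in capitals, the TCF/LEF match first, in the 30 bases at chr17:44814702-44814731 on the minus strand. GENCODE places the 5′ end of the gene 170 bases upstream of the RefSeq start site, so these bases lie before one annotated start and after the other.
Runx2: aCTTTGAgtactgtgaggtcacaaACCACA
Such matches are common. Of 32817 windows in the table, 16.8% held at least 1 RUNX match, 16.0% a TCF/LEF match and 8.0% a homeodomain match, which none of the members' windows held.

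All 3 RUNX genes share one longer run of letters. The Runx2 window and the more upstream windows of Runx1 and Runx3 have 18 bases in common, printed in capitals with 6 bases on either side. The run holds 2 RUNX matches that do not overlap, and 1.81% of all windows hold at least 2. Counted from the RefSeq start site, it begins at base 27 in Runx1 (chr16:92826025-92826054, minus strand) and at base 22 in Runx2 (chr17:44814583-44814612, minus strand). In Runx3 it begins at base -136 (chr4:135120503-135120532, plus strand).
Runx1: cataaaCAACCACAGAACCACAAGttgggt
Runx2: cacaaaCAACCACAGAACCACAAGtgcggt
Runx3: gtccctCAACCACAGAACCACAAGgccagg
The same 18 bases occurred in 4 of 32817 windows, those of the 3 RUNX genes and of the predicted gene Gm16225. The second, more downstream windows of Runx1 and Runx3 and the window of Cbfb held no RUNX match. Whether the run bears on the levels of these genes was not tested.

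Runx1, the RUNX factor of blood stem cells and hair follicles, lies on chromosome 16 from 92601466 to 92826149. Control, cKO and dTF-cKO held 107, 53 and 77 Runx1 counts, or 29.9, 18.7 and 27.5 CPM. The dTF-cKO interval (21.7 to 34.4 CPM) overlapped both others, and under TMM Runx1 was the only member whose lowest library was the cKO. Its ratio to the control was 0.626 in the cKO (0.442 to 0.879) and 0.919 in the dTF-cKO (0.677 to 1.24). The 20 leukocyte markers, which share blood with Runx1, summed to 510, 848 and 433 CPM in the same order, with the T cell genes Cd3e and Cd3g at 0 in each library. In the cKO 7 of 18 measured leukocyte markers were at least 2-fold higher and 0 lower, beside 10.2% and 7.17% of all measured genes. In the dTF-cKO 3 were higher and 6 lower, beside 19.9% and 21.7% of all measured genes. Under the stroma scaling the median log2 difference of these markers between dTF-cKO and cKO was 0.30 in place of -1.07, so the order of their levels depends on the scaling. Ratios within a library do not: the cKO had 0.0221 Runx1 counts per leukocyte marker count (0.0165 to 0.0290) against 0.0586 in the control (0.0478 to 0.0713) and 0.0635 in the dTF-cKO (0.0498 to 0.0800). The epidermis sum was lowest in the control; the part of epidermal or blood cells in the Runx1 level was not tested.

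Runx3, on chromosome 4 from 135120652 to 135177990, was the scarcest RUNX factor by counts, with 48, 28 and 11 counts. Its levels were 13.4, 9.90 and 3.93 CPM, and the control and cKO intervals overlapped (9.90 to 17.8 and 6.58 to 14.3 CPM). Its ratio to the control was 0.738 in the cKO (0.446 to 1.20), which does not separate the libraries at this depth, and it was 3.42-fold lower in the dTF-cKO (1.75 to 7.29). Against the cKO it was 2.52-fold lower in the dTF-cKO (1.22 to 5.61), and under the stroma scaling, described after the members, the ratio was 1.04.

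Cbfb, on chromosome 8 from 105170674 to 105217989, encodes the shared RUNX partner and is expressed in most tissues. It had 358, 209 and 130 counts, or 100.1, 73.9 and 46.4 CPM, under TMM highest in the control and lowest in the dTF-cKO with intervals that did not overlap. Its ratio to the control was 0.738 in the cKO (0.619 to 0.878), and it was 2.16-fold lower in the dTF-cKO (1.76 to 2.66), a ratio of 0.464 that the stroma scaling turns to 1.10. The 3 RUNX factors together had 1.86 counts per Cbfb count in the control (1.64 to 2.12), 0.967 in the cKO (0.793 to 1.18) and 1.15 in the dTF-cKO (0.906 to 1.47). The RUNX counts were therefore lower relative to their partner in both Cre-carrying libraries, and those 2 ratios overlapped each other. For Runx2 alone the counts per Cbfb count were 1.43 (1.25 to 1.64), 0.579 (0.459 to 0.728) and 0.477 (0.347 to 0.650).

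The make-up of the RUNX family differed among the libraries, and a share within a family does not depend on how libraries are scaled. Runx2 took 76.8% of the 667 RUNX counts of the control (73.4% to 79.9%), 59.9% of 202 in the cKO (52.8% to 66.7%) and 41.3% of 150 in the dTF-cKO (33.4% to 49.7%). Runx1 took 16.0% (13.3% to 19.1%), 26.2% (20.3% to 32.9%) and 51.3% (43.0% to 59.6%). The intervals of neither gene overlapped between any of the 3 libraries. In counts, Runx1 had 0.209 per Runx2 count in the control (0.168 to 0.258), 0.438 in the cKO (0.311 to 0.610) and 1.24 in the dTF-cKO (0.877 to 1.76). Runx3 took 7.20% (5.35% to 9.43%), 13.9% (9.41% to 19.4%) and 7.33% (3.72% to 12.7%), with no such order.

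**Figure D2:**
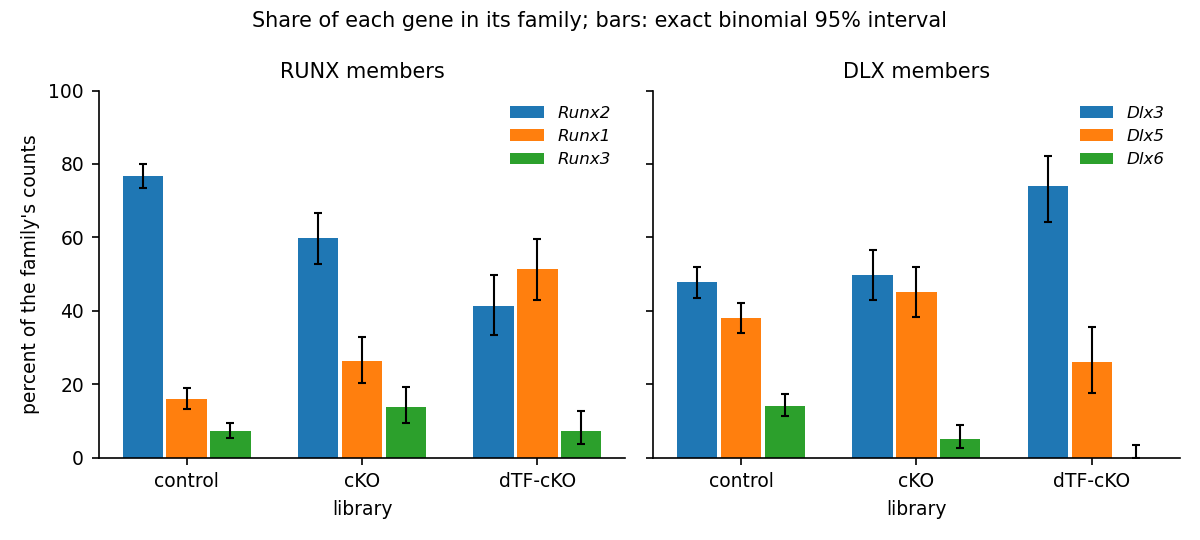
Percent of a family's counts held by each gene, for Runx2, Runx1 and Runx3 (left) and Dlx3, Dlx5 and Dlx6 (right), in the control, cKO and dTF-cKO libraries, with exact binomial 95% intervals. The Runx2 bar goes from 76.8% to 41.3% and the Dlx3 bar from 47.8% to 74.0%; Dlx6 has 0 counts in the dTF-cKO.

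Sp7 had the highest counts of the 8 factors in the control and only 2 in the dTF-cKO. Its fold there was not told apart from that of Dlx6, which had 0 counts. Sp7 lies on chromosome 15 from 102356606 to 102367182 on the minus strand. The control library held 1092 Sp7 counts, the cKO 153 and the dTF-cKO 2, or 305, 54.1 and 0.715 CPM. The intervals were 288 to 324, 45.9 to 63.4 and 0.0865 to 2.58 CPM, so the libraries stood far apart, and the dTF-cKO level was below the 1.07 CPM that 3 counts are worth there. Sp7 was 5.64-fold lower in the cKO (4.76 to 6.73), and 0.520% of measured genes had a lower log2 difference. In the dTF-cKO it was 427-fold lower than in control (118 to 3534) and 75.7-fold lower than in the cKO (20.6 to 631). Only 6 measured genes had a lower log2 difference from the control in the dTF-cKO, a rank taken with the prior count of 2.

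Sp7 was further below its control level than Runx2, and this holds within each library. The control had 2.13 Sp7 counts per Runx2 count (1.92 to 2.37), the cKO 1.26 (0.990 to 1.62) and the dTF-cKO 0.0323 (0.00382 to 0.122). Written as folds, the Runx2 ratio to the control was 1.69 times the Sp7 ratio in the cKO (1.29 to 2.21) and 66.1 times in the dTF-cKO (17.4 to 559). Against Dlx5 the order was the same: 5.22 Sp7 counts per Dlx5 count (4.50 to 6.09), 1.56 (1.20 to 2.03) and 0.0769 (0.00885 to 0.307). These ratios hold within a library, and none moves with the scaling.

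Dlx5 and Dlx6 are neighbours on chromosome 6, transcribed from opposite strands, with Dlx6 from 6863334 to 6868568 and Dlx5 from 6877805 to 6882085. Dlx5, a BMP-responsive activator of Runx2 and Sp7, had 209, 98 and 26 counts, or 58.5, 34.7 and 9.29 CPM. The intervals did not overlap (50.8 to 66.9, 28.1 to 42.2 and 6.07 to 13.6 CPM). It was 1.69-fold lower in the cKO (1.32 to 2.17) and 6.29-fold lower in the dTF-cKO (4.18 to 9.86), each against control. The dTF-cKO was also 3.73-fold below the cKO (2.40 to 5.99).

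Dlx6 had 78, 11 and 0 counts, or 21.8 CPM (17.2 to 27.2), 3.89 CPM (1.94 to 6.96) and 0. The cKO was 5.61-fold below control (2.97 to 11.7). With the 0 of the dTF-cKO set to a floor of 3 counts, Dlx6 there was at least 20.4-fold lower than in control and at least 3.63-fold lower than in cKO; the lower ends of the exact intervals were 16.2-fold and 2.48-fold. The gene pair was not lowered evenly: Dlx6 had 0.373 counts per Dlx5 count in the control (0.284 to 0.486) and 0.112 in the cKO (0.0543 to 0.210). In the dTF-cKO 0 of 26 counts of the pair were Dlx6, which allows up to 11.5% by the floor of 3 counts and 13.2% by the exact interval, against 27.2% in the control (22.1% to 32.7%) and 10.1% in the cKO (5.15% to 17.3%). The dTF-cKO share was therefore below the control share and was not told apart from the cKO share at this depth. Dlx6os1, the antisense RNA that spans the Dlx6 locus, had 8, 4 and 0 counts, too few to follow. No annotated exon of it overlaps a Dlx6 exon, whereas the antisense gene Dlx6os2 shares 104 exon bases and had 1, 0 and 0 counts.

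Dlx3, on chromosome 11 from 95120119 to 95125296, differed less from control than Dlx5 and Dlx6 did in the dTF-cKO. In the cKO its fold was not told apart from that of Dlx5, with a ratio of folds of 0.876 (0.622 to 1.23). Control, cKO and dTF-cKO held 263, 108 and 74 Dlx3 counts, or 73.6, 38.2 and 26.4 CPM. The control stood apart (64.9 to 83.0 CPM), and the intervals of the cKO (31.3 to 46.1) and dTF-cKO (20.8 to 33.2) overlapped. It was 1.93-fold lower in the cKO (1.53 to 2.43) and 2.78-fold lower in the dTF-cKO (2.14 to 3.65). Epidermis, where Dlx3 acts in differentiating keratinocytes, went the other way in these libraries. In the cKO 18 of 19 measured epidermis markers were at least 2-fold higher and 0 lower, beside 10.2% and 7.17% of all measured genes. In the dTF-cKO 19 of 19 were higher, beside 19.9% of all measured genes. Dlx3 was lower in both libraries with the high epidermis sums, and the part of epidermal Dlx3 in its counts was not tested. Within the DLX members Dlx3 took 47.8% of counts in the control (43.6% to 52.1%), 49.8% in the cKO (42.9% to 56.6%) and 74.0% in the dTF-cKO (64.3% to 82.3%). The dTF-cKO share lay above both others, whereas control and cKO overlapped.

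Per kilobase of merged exons, a scale that allows for gene length, the order of the members differed by library. Comparing genes this way assumes that reads cover whole transcripts and that the merged exons match the forms expressed, which was not tested. In the control Sp7 led at 89.9 CPM per kilobase, 3.12 times Cbfb at 28.8 (2.77 to 3.53). Cbfb did not differ from Dlx3 (28.2) beyond counting error, nor Dlx3 from Dlx5 (25.8). Dlx5 stood 1.59 times above Runx2 at 16.2 (1.35 to 1.88). Dlx6 (9.19), Runx3 (2.68) and Runx1 (2.49) followed, the last 2 again not told apart. In the cKO Cbfb led at 21.2 CPM per kilobase, ahead of Sp7 (15.9). Sp7 was not told apart from Dlx5 (15.3), nor Dlx5 from Dlx3 (14.7). Dlx3 stood 3.03 times above Runx2 at 4.84 (2.31 to 3.95). Further down, Runx3 (1.98) was not told apart from Dlx6 (1.64), nor Dlx6 from Runx1 (1.56). In the dTF-cKO Cbfb (13.3) and Dlx3 (10.1) led without a difference beyond counting error. Dlx5 (4.11) was not told apart from Runx2 (2.51), nor Runx2 from Runx1 (2.29), whereas Runx1 stood 2.91 times above Runx3 at 0.786 (1.54 to 6.08). Sp7 at 0.210 and Dlx6 at 0 came last, and Runx3 was not told apart from Sp7, nor Sp7 from Dlx6. Sp7 thus went from first place to seventh of 8, while Cbfb was first or second in every library.

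**Figure D3:**
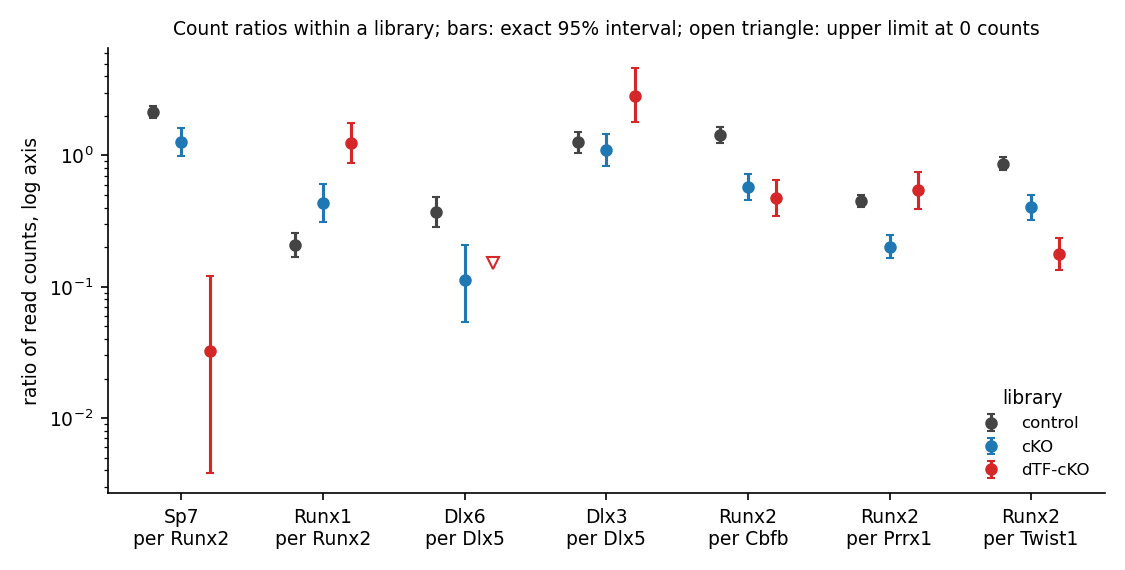
Ratios of read counts between genes of the same library (log axis) in the control, cKO and dTF-cKO, with exact 95% intervals; the open triangle is the upper limit where the first gene has 0 counts. Sp7 per Runx2 goes from 2.13 to 0.0323, while Runx2 per Prrx1 is lowest in the cKO.

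The factors differed from control by unequal amounts. Among the 28 pairs of members, the exact interval of the ratio of their folds excluded 1 for 17 when the cKO was set against control. For the dTF-cKO it did so for 21 pairs with control as the reference and 18 with the cKO as the reference. In the cKO the folds of Runx1, Runx3 and Cbfb were not told apart, with ratios of folds of 0.849 (0.463 to 1.57) for Runx1 to Runx3 and 0.848 (0.573 to 1.25) for Runx1 to Cbfb. In the dTF-cKO the folds of Runx2 and Dlx5 were not told apart, with a ratio of folds of 0.973 (0.588 to 1.65), an interval that leaves room for a difference of up to 1.70 times.

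Relative to genes of undifferentiated mesenchyme, the answer for Runx2 depended on the reference. Prrx1 marks limb and skull progenitors, and Runx2 had 0.447 counts per Prrx1 count in the control (0.402 to 0.496), 0.202 in the cKO (0.165 to 0.246) and 0.544 in the dTF-cKO (0.393 to 0.747). By that ratio the cKO lay below both other libraries, whose intervals overlapped. Against Twist1, which marks the same cells and holds back Runx2 activity, it had 0.868 (0.769 to 0.979), 0.402 (0.323 to 0.498) and 0.178 (0.133 to 0.233). In the dTF-cKO, Prrx1 itself was 7.87-fold below control (6.49 to 9.63) and Twist1 1.32-fold below it (1.16 to 1.51).

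The scaling between libraries matters most for the dTF-cKO. Under library totals and DESeq2 size factors the same 3 and 7 members were at least 2-fold lower than in the control. A scaling that sets a list of 30 genes of dermis, meninges, pericytes and endothelium level, called the stroma scaling, multiplies every dTF-cKO to control ratio by 2.37 and puts the median log2 difference of all measured genes at 1.27. It leaves 8.77% of measured genes at least 2-fold lower and 60.1% higher, whereas library totals without the 20 most abundant genes give 28.9% lower and 13.5% higher. Against the cKO the same scalings give 7.31% lower and 63.6% higher, and 28.2% lower and 9.71% higher. Of the 30 stroma genes themselves, 21 were at least 2-fold lower and 3 higher in the dTF-cKO under TMM. Under the stroma scaling 4 of 8 members were at least 2-fold lower in the dTF-cKO, Runx2 by 2.73-fold, Sp7 by 180-fold, Dlx5 by 2.66-fold and Dlx6 by at least 8.59-fold. Cbfb then had a ratio of 1.10, Runx3 of 0.694, Dlx3 of 0.852 and Runx1 of 2.18, the only member at least 2-fold higher. Between the Cre-carrying libraries only Sp7 remained at least 2-fold lower, by 28.9-fold, and Runx1 was 3.85-fold higher. The dTF-cKO to cKO ratios of Runx2, Runx3, Cbfb and Dlx3 were then 1.36, 1.04, 1.65 and 1.82, all above 1, where TMM gave 0.518, 0.397, 0.628 and 0.692. For the cKO against control the same scaling gave 4 members in place of 3, adding Dlx3 at 2.13-fold.

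**Figure D4:**
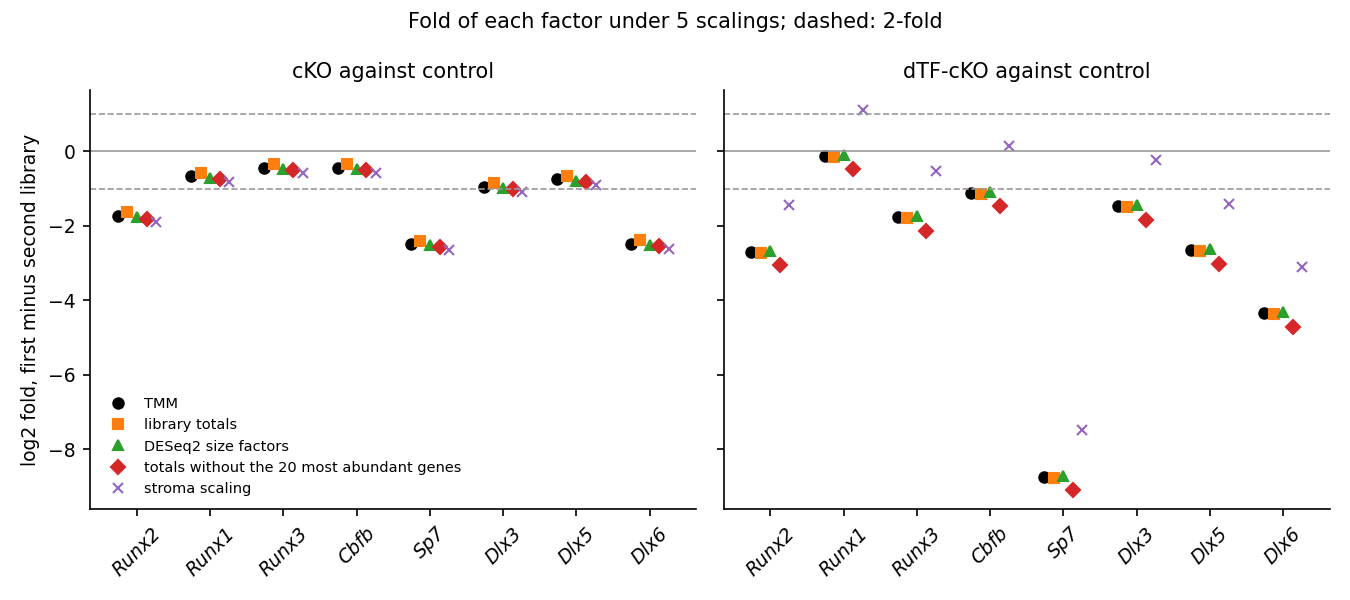
Log2 fold of each factor in the cKO (left) and the dTF-cKO (right) against control under 5 scalings, with a count of 0 set to 3 counts; dashed lines mark 2-fold. In the cKO the 5 marks of a gene lie close together; in the dTF-cKO the stroma scaling puts Cbfb at a ratio of 1.10 and Runx1 at 2.18, and leaves Sp7 180-fold lower.

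Genes described in the field as downstream of Runx2 or Sp7 were lower along with the factors. Of 26 listed, 22 were measured. In the cKO 19 were at least 2-fold lower and 1 higher, beside 7.17% and 10.2% of all measured genes. Their median log2 difference was -2.03. In the dTF-cKO 18 were lower and 2 higher, beside 21.7% and 19.9% of all measured genes. The median there was -4.51, or -4.28 if each 0 is raised to 3 counts. Such a fall was not particular to this list. All 11 measured muscle markers were at least 2-fold lower in both libraries, with medians of -2.40 and -6.11. Many of the downstream genes are also high in osteoblasts as such, so the list is not independent of how many osteoblasts a library holds. Mmp13, a collagenase and direct Runx2 target, had 376, 38 and 2 counts. Smpd3, a sphingomyelinase of mineralising tissue, had 1558, 200 and 1, and Dmp1, a gene of osteocytes, 922, 244 and 2. Panx3, a channel protein of osteoblasts, had 656, 43 and 0 counts, the 0 being at least 171-fold lower than the control. Phospho1, a phosphatase that starts mineral deposition, had 121, 14 and 8 counts.

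Within a library the downstream genes and the factors did not keep one proportion. Ibsp encodes bone sialoprotein, which binds mineral. It had 11.6 counts per Sp7 count in the control (10.9 to 12.3) and 5.78 in the cKO (4.87 to 6.91); the dTF-cKO held 5 counts against 2. Alpl, the alkaline phosphatase of early osteoblasts, kept closer to Sp7, with 2.39 counts per Sp7 count in the control (2.23 to 2.57), 2.65 in the cKO (2.20 to 3.22) and 7.5 in the dTF-cKO (1.74 to 67.6), the last from 15 counts against 2. Per Runx2 count Ibsp went from 24.7 (22.6 to 27.0) to 7.31 (6.04 to 8.92) and 0.0806 (0.0253 to 0.199). Col1a1, the main chain of type I collagen, had 800 counts per Runx2 count in the control (734 to 875), 530 in the cKO (444 to 639) and 237 in the dTF-cKO (185 to 310). The 2 higher genes of the list in the dTF-cKO were Bglap3 and Vegfa, chosen after their values were seen. Bglap3 had 11, 44 and 280 counts but is a near copy of Bglap and Bglap2, so its counts are uncertain. Vegfa, the main endothelial growth factor, had 280, 280 and 1306 counts and was 5.96-fold above control in the dTF-cKO (5.23 to 6.80).

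Upstream and partner factors of Runx2 and Sp7 were less uniform. In the cKO the 30 measured had a median log2 difference of -0.06. Of them 3 were at least 2-fold lower and 3 higher, beside 7.17% and 10.2% of all measured genes. The dTF-cKO had 15 lower and 5 higher, beside 21.7% and 19.9% of all measured genes. The list's median there was -1.09 and became 0.13 under the stroma scaling. Tcf7, a TCF/LEF factor that carries Wnt output, was 3.89-fold lower in the cKO (3.09 to 4.94) and 19.1-fold lower in the dTF-cKO (11.9 to 32.4). Lef1, the other TCF/LEF factor of the list, had 40, 67 and 43 counts and was 2.12-fold above control in the cKO (1.41 to 3.22), with a ratio of 1.37 in the dTF-cKO (0.872 to 2.17). Nfatc1, a calcineurin-dependent partner of Sp7 that is also the master factor of osteoclasts, was 2.64-fold lower (2.14 to 3.26) and 26.1-fold lower (14.8 to 50.9). The 9 osteoclast markers summed to 958, 222 and 146 CPM in the same libraries, and their part in Nfatc1 was not tested. Alx4, a homeobox factor of the skull vault, had 602, 252 and 11 counts. Maf, a partner of Runx2 in osteoblast commitment, had 450, 361 and 47 counts and a ratio of 1.01 in the cKO (0.881 to 1.17).

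The genes of that list at least 2-fold higher than in control were Lef1, Cebpb and Junb in the cKO, and Cebpb, Junb, Fosl2, Atf4 and Rb1 in the dTF-cKO. Cebpb, a leucine zipper factor, had 34, 129 and 175 counts and stood 4.80-fold (3.27 to 7.22) and 6.57-fold (4.53 to 9.79) above control in cKO and dTF-cKO. Junb, an AP-1 subunit, had 50, 146 and 606 counts and was 3.69-fold above control in the cKO (2.66 to 5.20) and 4.19-fold above the cKO in the dTF-cKO (3.49 to 5.06). Atf4, a leucine zipper factor of the stress response, had 604, 448 and 1279 counts, with ratios to control of 0.938 (0.828 to 1.06) and 2.7 (2.45 to 2.98). Cebpb and Junb are expressed in epidermis, whose markers were higher in the same libraries, and that part was not tested.

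Factors that oppose Runx2 gave few calls in the cKO, as did all measured genes. Their balance in the dTF-cKO depended on the scaling. The 19 measured had a median log2 difference of -0.08 in the cKO. Of them 1 was at least 2-fold higher and 0 lower, beside 10.2% higher and 7.17% lower among all measured genes. That one was Twist2, with 21, 80 and 35 counts, whose locus carries the Cre in both Cre-carrying libraries, so its own response and the altered locus cannot be told apart. In the dTF-cKO 2 were higher and 6 lower, with a median of -0.39, beside 19.9% and 21.7% of all measured genes. Under the stroma scaling 8 were higher and 5 lower, with a median of 0.85, beside 60.1% and 8.77% of all measured genes. The higher ones under TMM were Twist2 and Smurf1, a ubiquitin ligase that marks Runx2 for breakdown, which had 177, 169 and 497 counts and was 3.59-fold above control (3.02 to 4.28). Among the lower ones Zfp521, a zinc finger protein that binds Runx2, was 21-fold lower (13.6 to 34.2), and its relative Zfp423 12.8-fold lower (7.82 to 22.2). Hey1, a Notch effector, had 101, 45 and 9 counts. Hdac4, a deacetylase that holds Runx2 inactive, had 108, 152 and 130 counts and a ratio of 1.78 in the cKO (1.38 to 2.30) and 1.54 in the dTF-cKO (1.18 to 2.0).

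**Figure D5:**
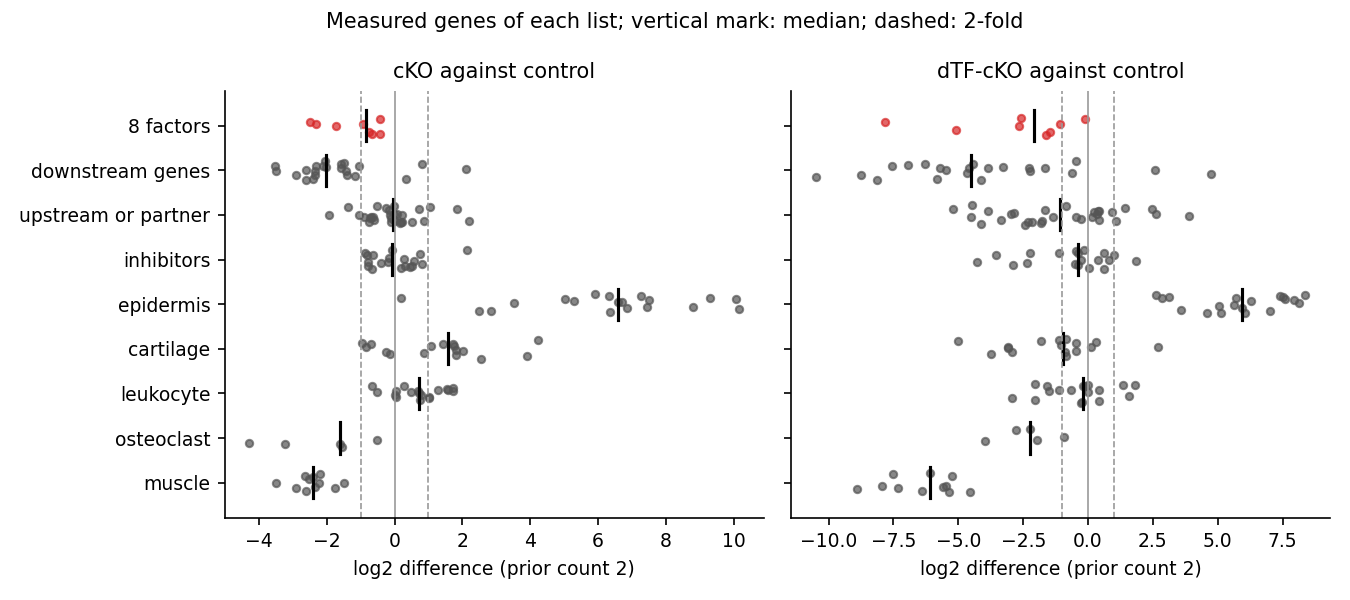
Log2 difference (prior count 2) of every measured gene of the 8 factors, the downstream, upstream and inhibitor lists and 5 marker lists, in the cKO (left) and the dTF-cKO (right) against control. Points are genes, vertical marks medians, dashed lines 2-fold; the downstream medians are -2.03 and -4.51, and epidermis markers lie to the right in both panels.

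The genes whose pattern over the 3 libraries was most like a member's were found by distance in the plane of the log2 differences of the cKO and the dTF-cKO from control. Rcor2, a co-repressor subunit, lay nearest Runx2 (330, 78 and 39 counts, distance 0.02), followed by Bmp3, a BMP family member of bone (211, 50 and 26 counts, distance 0.08). Sp7 had no gene within a distance of 0.25. Its nearest were Slc8a3, a sodium-calcium exchanger (435, 64 and 0 counts, distance 0.27), Actc1 (880, 150 and 1) and Ckm (429, 71 and 0), and the last 2 are genes of skeletal muscle. Col24a1, a collagen of forming bone, was among the nearest to Dlx6 (567, 90 and 10 counts, distance 0.13), together with Sema3b and the muscle gene Tnnt1. Around Dlx5, Dlx3, Runx1, Runx3 and Cbfb 57 to 269 genes lay within 0.25, so their neighbours single out nothing. With 3 libraries, likeness means only that counts, with the prior count of 2 added, stood in similar proportions. Counts near 0 in the dTF-cKO, as for Sp7, Dlx6, Slc8a3, Actc1 and Ckm, leave the proportion poorly fixed. Distances of these genes therefore depend on the prior count. With a prior count of 10 the Dlx6 log2 difference from control went from -5.11 to -2.94.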

How the data were processed

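Values are raw read counts per gene symbol, whole numbers deposited by the authors for 1 library of each of 3 genotypes. Per the submitters' processing notes the build was mm10. For aligner, counter, annotation and strand the entry is: not given in the sources used here. TMM scaling over the 3 libraries used edgeR 4.0.16 (R 4.3.3). Folds are ratios of scaled counts with an exact conditional (Clopper-Pearson) 95% interval; levels have exact Poisson and shares exact binomial (Clopper-Pearson) intervals. Reads carry no molecular identifiers and PCR copies are not independent, so these intervals and the floor of 3 counts cover only counting error. List medians, ranks and distances use log2 CPM with a prior count of 2. Called means at least 2-fold; no p-value was computed. Calls and intervals were checked on simulated counts that held counting error only, the error the intervals assume. That check cannot speak to differences between embryos. Positions and merged exon lengths are from GENCODE M21, start-site windows from RefSeq.

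The members and lists were chosen with earlier results of these data known. Named genes were all members, Ctnnb1 and close relatives; from each list, up to 4 measured genes per comparison with the largest difference whose interval excludes 1, and the 2 most abundant; and the 3 nearest genes in pattern per member. Prrx1, Alpl, Bglap3, Vegfa, Lef1, Fosl2, Atf4, Rb1, Smurf1 and the marker genes named at 0 fall outside that rule. Of the listed genes, 3 were found under an older symbol. Alternatives were 4 other scalings (one with DESeq2 1.42.0), other floors, size rules and prior counts, and TMM from the compared libraries only. A further factor is not reported here.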

Additional observations from a re-analysis of the deposited data

How the results depend on the processing

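No paired analysis was possible because each genotype had 1 library. The number of members at least 2-fold lower or higher stayed within 1.5 times its value under library totals, DESeq2 size factors, totals without the 20 most abundant genes, no expression floor, a 3-fold size rule and the 2-fold rule with a counting interval that excludes 1, and, in an alternative chosen after seeing the data, with TMM factors from the compared libraries only. A 1.5-fold size rule gave 6 members lower in the cKO than in the control in place of 3. A floor of 20 CPM left 2 in place of 4 lower in the dTF-cKO set against the cKO, because it tests fewer genes. The stroma scaling gave 4 in place of 7 lower and 1 in place of 0 higher in the dTF-cKO set against control, and 1 in place of 4 lower and 1 in place of 0 higher against the cKO. Of ratios at least 2-fold under TMM, it turned that of Cbfb to 1.10 against control and of Runx3 to 1.04 against the cKO; of smaller ones, it turned Runx1 to 2.18 against control, and Runx2 to 1.36, Cbfb to 1.65 and Dlx3 to 1.82 against the cKO. For the dTF-cKO against control it turned the medians of the upstream list to 0.13, its own reference list to 0.038, cartilage to 0.21, inhibitors to 0.85 and leukocytes to 1.03. Against the cKO it turned those of leukocytes to 0.30, the upstream list to 0.42, inhibitors to 1.13 and osteoclasts to 0.64. The cKO medians near 0 changed sign under library totals, to 0.02 (inhibitors) and 0.04 (upstream list), and for inhibitors without a floor to 0.05. Other settings shifted medians too. Without the 20 most abundant genes, the dTF-cKO median against control went from -0.20 to -0.56 for leukocytes and from -0.96 to -1.31 for cartilage. Cbfb was then 2.77-fold below control in place of 2.16-fold. Without a floor the median of downstream genes went from -4.51 to -3.97. The stroma scaling puts 60.1% of measured genes at least 2-fold higher in the dTF-cKO against control. Which scaling is nearer the tissue was not tested. Depth limits Runx3, Dlx6 and Sp7 in the dTF-cKO, with 11, 0 and 2 counts, and 3 counts there are worth 1.07 CPM. With a prior count of 10 the Sp7 log2 difference there went from -7.81 to -6.28 against control and from -5.32 to -3.85 against the cKO. That of Dlx6 went from -5.11 to -2.94 and from -2.80 to -1.13. A prior count of 0.5 put Dlx6 at -7.07 and -4.64.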

Other observations

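Relatives of the members outside the osteoblast set were looked up in the same libraries. Sp1 and Sp3, widely expressed zinc finger factors related to Sp7, did not share its pattern. Sp1 had 341, 281 and 570 counts in control, cKO and dTF-cKO, with ratios to control of 1.04 (0.887 to 1.22) and 2.14 (1.86 to 2.45). Sp3 had 257, 218 and 344 counts, with ratios of 1.07 (0.891 to 1.29) and 1.71 (1.45 to 2.02). Sp8, a factor of limb and face ectoderm, had 13, 0 and 0 counts, and its relative Sp9 had 1, 11 and 1. The other distal-less genes were barely present: Dlx1 had 3, 2 and 2 counts, Dlx2 7, 3 and 11, and Dlx4 1, 4 and 3.

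The ETO family co-repressors, known as fusion partners of Runx1 in leukaemia, were also measured. Cbfa2t2 had 137, 118 and 138 counts. Cbfa2t3, which acts in blood progenitors and endothelium, had 47, 33 and 6 counts and was 6.13-fold below control in the dTF-cKO (2.62 to 17.5). Runx1t1 had 48, 24 and 15 counts and was 2.50-fold lower there (1.38 to 4.82).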
